A study of Rattus norvegicus with 12 samples.

Results

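β-Synuclein-reactive CD4+ T cells carrying a transgenic T cell receptor were compared between the brain parenchyma, which is the brain tissue itself, and the blood. The comparison used 6 of the 12 libraries of the series, chosen by their labels: 3 from parenchyma and 3 from blood, each with one count table. Both groups were LEW/Crl (Lewis) rat cells of the genotype b-syn TCR Tg, sorted after intravenous transfer. The series' design text gives day 3 after transfer for all samples. However, the titles of the parenchyma samples end in the digit 4 and those of all other samples in 3. If the digit is a day, tissue and day cannot be told apart in any comparison with the parenchyma. A further 3 libraries of the same genotype from the meninges, which envelop the brain, shared the fit, and 3 wild-type blood libraries served as other blood samples. The labels do not say how many rats gave cells to a library or whether cells were pooled. P-values therefore reflect no more than the spread among these libraries, and that spread may be technical. The labels also do not say which promoter drives the receptor.

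T cells that recognise a brain antigen are activated outside the brain, travel in the blood, and cross vessels into the meninges and the parenchyma. There they can meet their antigen again on local antigen-presenting cells and are reactivated. β-Synuclein is a protein of neuronal synapses, so the parenchyma is the tissue in which its neurons lie. The count tables list genes by Ensembl rat identifier and pair none with a name (0 identifiers matched the reference table at hand), so genes are described here as groups defined by their levels, and the identity of the sorted cells was not checked against marker genes. In libraries of sorted cells, a different number of cells of one kind and a different amount of RNA per cell cannot be told apart.

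The 6 libraries held between 16848739 and 27761421 counts. Of 11809 genes tested with edgeR's quasi-likelihood test, 2211 were higher in the parenchyma (18.7% of those tested) and 1932 lower (16.4%) at an adjusted p under 0.05, which makes 4143 changed genes (35.1%). The median of all tested genes moved by 0.02 on the log2 scale. Every parenchyma library stood above every blood library in 23.9% of the tested genes, and every one stood below in 22.6%. Parenchyma replicates 2 and 3 were the furthest apart. Log2 levels correlated across genes at 0.976 between replicates 1 and 2, at 0.969 between 1 and 3 and at 0.944 between 2 and 3, against 0.989 to 0.991 between blood libraries. Such correlations run over genes and not over independent samples. Results that rest on replicate 3 are given with and without it.

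Changes seen in every parenchyma library were kept apart from rises carried by 1 library, and many called genes belonged to neither group. A rise was counted as present in all 3 libraries when the lowest parenchyma library had at least 2 times the level, in counts scaled to library size (CPM), of the highest blood library, with at least 10 counts in each parenchyma library. A gene was counted as carried by 1 library when its highest parenchyma level was at least 4 times the second highest. A rise in all 3 libraries was found in 607 genes (5.14% of those tested), of which 517 (4.38%) were not carried by 1 library and are called even rises below. Carried by 1 library were 190 genes called higher (1.61%), 90 of them also at 2 times blood or more in all 3 libraries. A fall in all 3 libraries, to at most 1/2 of the lowest blood library, was found in 225 genes (1.91%). Leaving out parenchyma replicate 2 moved these counts to 1011 rises in both remaining libraries, 790 of them even, and 401 falls. The number of rises carried by 1 library was 117 without blood replicate 3, and 342, 293 and 137 without parenchyma replicates 1, 2 and 3. With 2 parenchyma libraries left, the second highest is also the lowest, so the last 3 counts follow an easier rule than the 190. These groups were cut from the same values that gave the calls, so their sizes and levels are a description.

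**Figure D1:**
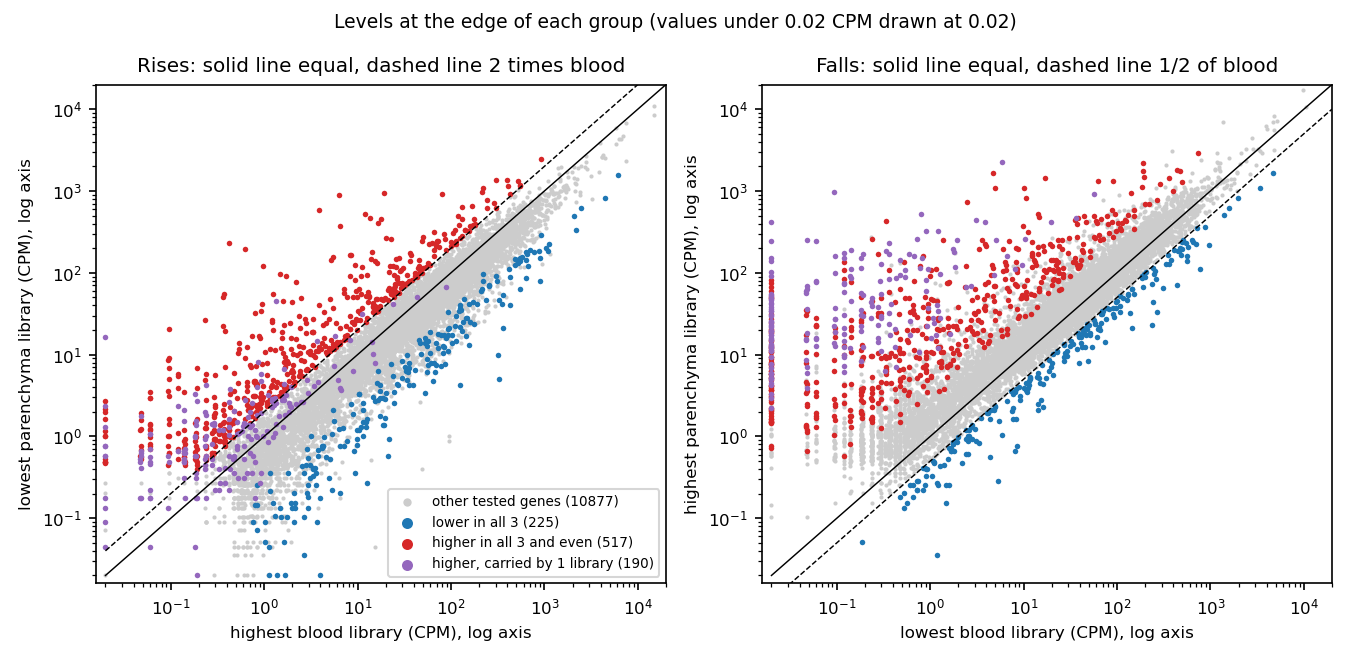
CPM of each tested gene in the blood library and the parenchyma library nearest to each other for a rise (left, highest blood on the x axis and lowest parenchyma on the y axis) and for a fall (right, lowest blood and highest parenchyma), on log axes. Each point is a gene; the 517 even rises (red) lie above the dashed line of 2 times blood on the left, the 225 falls (blue) lie below the dashed line on the right, and many of the 190 genes carried by 1 library (purple) lie near the line of equal levels on the left.

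Most called genes did not reach the 2-fold margin in every library. Among the genes called higher, 961 reached it in 0 parenchyma libraries, 299 in 1, 344 in 2 and 607 in 3. Among those called lower, 1132 reached it in 0 libraries, 301 in 1, 274 in 2 and 225 in 3. By the fitted fold change, 1007 of the rises and 1210 of the falls were below 2-fold, so that changes of under 2-fold were the larger part among falls and not among rises.

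Even rises started from low levels in blood. Their median level was 1.39, 1.58 and 1.26 CPM in blood replicates 1, 2 and 3 and 16.6, 12.7 and 19.8 CPM in parenchyma replicates 1, 2 and 3. All 3 parenchyma medians lay above all 3 blood medians, as the choice of the genes sets, and replicate 2 had the lowest of the parenchyma. The median log2 fold change was 2.90, with quartiles of 2.02 and 4.47. Under 10 counts were found in every blood library for 152 of the 517 genes, and such genes passed the filter on low counts through the brain libraries; 12 of them had no blood count at all. With these 12 genes set to their lower bound against 3 counts over the blood group, the median log2 fold change stayed at 2.90.

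The summed share of these genes in the counts was higher in every parenchyma library than in every blood library, as their choice implies. In parenchyma replicates 1, 2 and 3 they held 5.86%, 5.56% and 5.42% of all counts. In blood replicates 1, 2 and 3 they held 1.15%, 1.15% and 1.10%. The means were 5.61% ± 0.222 and 1.13% ± 0.0291 (SD, n = 3), a description of genes chosen for being higher. Meningeal replicates 1, 2 and 3 lay between and further apart, at 2.54%, 3.60% and 3.44%. The 10 most abundant genes of the 607 that rose in all 3 libraries held 1.48%, 1.53% and 1.55% of the counts in replicates 1, 2 and 3 of the parenchyma, and between 0.340% and 0.349% in blood.

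Within the 517 even rises, 333 genes (64.4%) lay within 2-fold of each other across the 3 parenchyma libraries. Of all tested genes, 82.0% did. Their median level was 32.8, 32.5 and 31.4 CPM in parenchyma replicates 1, 2 and 3, a closeness that the choice of the genes sets. It was 4.21, 3.95 and 4.07 CPM in blood replicates 1, 2 and 3. The median log2 fold change of this group was 2.33 (quartiles 1.75 and 3.52), and its median replicate SD was 0.257 in the parenchyma and 0.208 in blood on the scale of log2(CPM + 0.5). Replicate 1 was the highest parenchyma library for 150 of these genes, replicate 2 for 105 and replicate 3 for 78. In the parenchyma they took 4.80% ± 0.252 of the counts, which is most of the 5.61% held by all 517 even rises, and in blood 1.07% ± 0.0274.

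A smaller group passed the rule for even rises while its libraries were far apart. In 79 genes the highest parenchyma library was more than 4 times the lowest, although less than 4 times the second highest. Their median level was 5.77 CPM in parenchyma replicate 1, 1.11 CPM in replicate 2 and 14.5 CPM in replicate 3, and at most 0.139 CPM in any blood library. The order of the libraries was replicate 3 above 1 above 2 in 70 of the 79 genes. The same order held for 45 of the 333 genes within 2-fold. Parenchyma replicates 1, 2 and 3 gave 0.0952%, 0.0345% and 0.200% of their counts to the 79 genes.

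Rises carried by 1 library were almost all rises of replicate 3. It was the highest library in 189 of the 190 genes, and replicate 2 was the highest in the remaining gene. Their median level was 34.0 CPM in parenchyma replicate 3, 3.24 CPM in replicate 1 and 1.11 CPM in replicate 2. In blood replicates 1, 2 and 3 it was 0.287, 0.279 and 0.180 CPM. The median difference from blood on the log2(CPM + 0.5) scale was 2.10 in replicate 1, 0.84 in replicate 2 and 5.15 in replicate 3, over genes that had to be called higher to enter the group. The lowest parenchyma library was replicate 2 in 172 genes and replicate 1 in 18. These genes took 1.80% of the counts of replicate 3, 0.223% in replicate 1, 0.0644% in replicate 2 and between 0.0265% and 0.0313% in blood. In the meninges they held 0.0672%, 0.0362% and 0.0300% in replicates 1, 2 and 3, highest in replicate 1.

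The calls of this group, chosen for a wide spread within the parenchyma, were also followed across settings. Without parenchyma replicate 3, 129 of the 190 genes were still called higher and 66 were still carried by 1 of the remaining libraries. Limma-voom called 40 of them, and 26 were called in each of 17 other settings. Of all 4143 changed genes, 2403 (58.0%) were called in each of those settings, as were 434 of the 517 even rises, 307 of the 333 genes within 2-fold and 197 of the 225 falls. In these counts, a gene that a setting's filter left untested counts as not called. With the filter for a mean of at least 1 CPM, 454 of the 517, 307 of the 333 and 198 of the 225 were called. Of the 190 genes carried by 1 library, 177 were. The rules that chose these groups also favour a difference between them. A library at least 4 times the second highest was also found in genes that were not called higher, 99 times in replicate 3, 5 times in replicate 1 and 2 times in replicate 2. Over all tested genes, called or not, the rule applied to 2.51%.

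**Figure D2:**
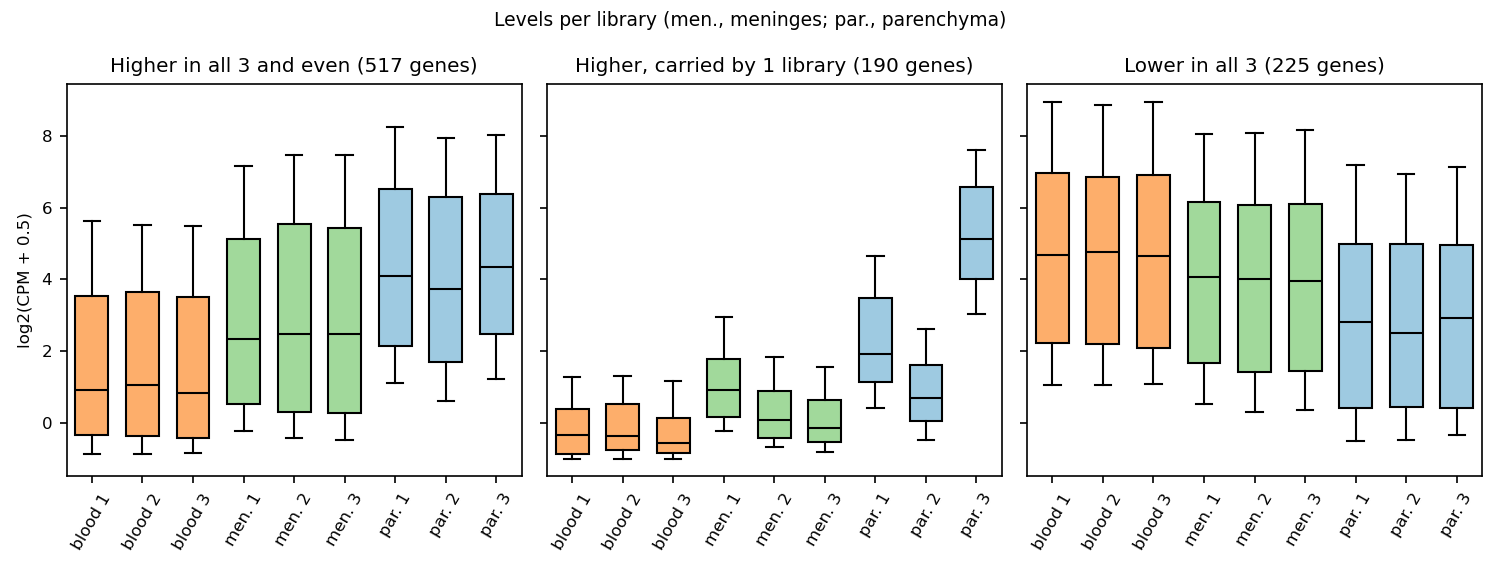
Levels of the 3 groups of genes in each of the 9 transgenic libraries, on the scale of log2(CPM + 0.5). Boxes span the quartiles with the median as a line and whiskers reach the 10th and 90th percentiles over genes; the groups were chosen by these patterns, and the median difference of the even rises from blood lies between 1.86 in parenchyma replicate 2 and 2.38 in replicate 3.

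The larger the rise, the more often replicate 3 led. Among rises below 2-fold, replicate 3 was the highest parenchyma library in 274 of 1007 genes. It was the highest in 201 of 533 genes with rises of 2 to 4-fold, in 101 of 213 with 4 to 8-fold, in 131 of 220 with 8 to 32-fold and in 185 of 238 above 32-fold. The full order of replicate 3 above 1 above 2 held in 15.4% of the rises below 2-fold and in 70.6% of those above 32-fold. The ratio of the highest to the lowest parenchyma library had a median of 1.24 in the first of these groups and of 17.1 in the last. Falls did not show replicate 3 in this place: the lowest library was replicate 1 in 915 of the 1932 genes, replicate 2 in 590 and replicate 3 in 427. Among the 225 falls in all 3 libraries, the lowest was replicate 2 in 106 genes, replicate 1 in 79 and replicate 3 in 40.

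**Figure D3:**
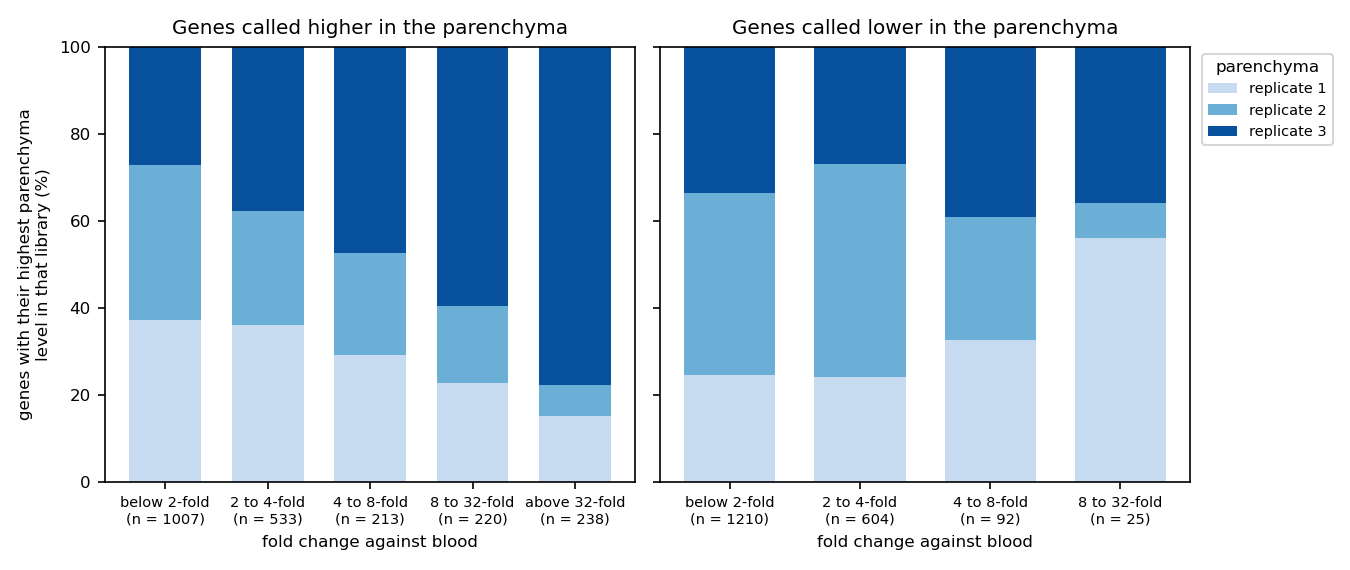
Share of genes, in percent, whose highest parenchyma level was in replicate 1, 2 or 3, by size of the fold change against blood, for genes called higher (left) and lower (right). Among rises the share of replicate 3 goes from 274 of 1007 genes below 2-fold to 185 of 238 above 32-fold; the 1 fall above 32-fold is not drawn.

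Counts of large rises depended on replicates 2 and 3. With all libraries, 458 genes rose more than 8-fold and 238 more than 32-fold. Without parenchyma replicate 3 these were 355 and 133 genes, of which 341 and 130 were among the genes found with all libraries. Without replicate 2 they were 659 and 377, and without replicate 1 they were 494 and 266. The number of large rises was thus highest without replicate 2 and lowest without replicate 3. Large falls numbered 26 above 8-fold with all libraries and 32, 25 and 34 without replicate 3, 2 and 1. Rises above 8-fold outnumbered falls of that size in each of these fits, with the limit that genes near 0 in blood enter through the parenchyma.

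Taken singly against blood, the parenchyma libraries differed in how many genes they raised. The 2-fold margin over the highest blood library was reached by 1057 tested genes in replicate 1 (8.95%), 826 in replicate 2 (6.99%) and 1251 in replicate 3 (10.6%). Reached in that library and in no other were 147 genes in replicate 1, 97 in replicate 2 and 331 in replicate 3, of which 100, 68 and 131 were called higher. Conversely, replicate 2 was the one library short of the margin for 227 genes called higher, replicate 1 for 63 and replicate 3 for 54. Falls to 1/2 of the lowest blood library or less were reached by 622, 435 and 467 of the genes called lower in replicates 1, 2 and 3. Totals were 19054156 counts in replicate 1, 21840045 in replicate 2 and 27761421 in replicate 3, and 15725, 15400 and 17095 genes had at least 1 count. Replicate 3, the deepest, raised the most genes, while replicate 1, the shallowest, raised more than replicate 2. The part of depth in these numbers was not tested.

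**Figure D4:**
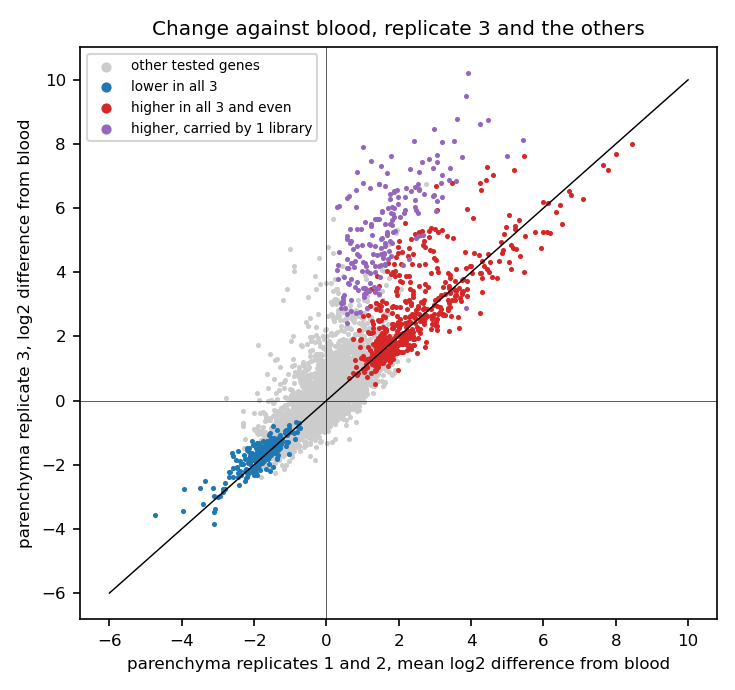
Difference from the mean of the blood libraries in parenchyma replicate 3 (y axis) against the mean difference of parenchyma replicates 1 and 2 (x axis), both on the scale of log2(CPM + 0.5), for each tested gene. Falls and most even rises lie along the line of equal change, and the 190 genes carried by 1 library form a separate arm above it together with part of the even rises.

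The groups also differed in abundance. The tested genes were divided into 4 bins of equal size by their mean over the 9 transgenic libraries. In the lowest bin, with a median of 1.56 CPM, 24.1% of genes were called higher and 9.62% lower. In the highest bin, with a median of 155 CPM, 16.5% were higher and 22.0% lower. Of the 190 genes carried by 1 library, 170 lay in the lowest bin, 16 in the next, 3 in the third and 1 in the highest. A gene high in only 1 library ranks lower by a log2 mean than by mean CPM, so the binning favours the lowest bin for this group. The 333 rises within 2-fold were spread over all bins, with 131, 77, 62 and 63 genes from lowest to highest, and the 225 falls likewise with 83, 53, 41 and 48. At high abundance, 95 genes that rose in all 3 libraries stood at 100 CPM or more in every parenchyma library, and 88 of these lay within 2-fold across the libraries.

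Genes that crossed from near absence to presence in every library were few. Under 1 CPM in every blood library and at 10 CPM or more in every parenchyma library were 20 genes. Of these, 12 lay within 2-fold across the parenchyma and 8 were highest in replicate 3. When only the parenchyma mean had to reach 10 CPM, the number was 116, and 43 when that mean was taken without replicate 3. From under 10 CPM in every blood library to 100 CPM or more in every parenchyma library went 11 genes, 10 of them within 2-fold. From under 1 CPM to 100 CPM or more went 3 genes, all within 2-fold. In the other direction 0 genes fell from 10 CPM or more in every blood library to under 1 CPM in every parenchyma library, and 3 fell from 5 CPM or more to under 1 CPM. Of the 20 genes, 15 were also under 1 CPM in every wild-type blood library, 1 was under 1 CPM in every meningeal library and 7 were at 10 CPM or more in every meningeal library.

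The largest even rise by the naming rule was ENSRNOG00000019141. It had 0 counts in each of the 3 blood libraries and 15.9, 0.533 and 50.8 CPM in parenchyma replicates 1, 2 and 3. The parenchyma libraries did not overlap with blood, as the rule for rises sets, but spanned 95.3-fold. Replicate 2 was close to the meningeal libraries at 0.444, 0.307 and 0.372 CPM. The detection floor was taken as 3 counts summed over the blood libraries. Against it, parenchyma replicates 1, 2 and 3 were at least 313-fold, 10.5-fold and 1000-fold higher than blood. Replicate 2 had 12 counts. The parenchyma mean was at least 441-fold higher than blood, and at least 162-fold without parenchyma replicate 3. The edgeR adjusted p was 0.00643 with all libraries and 0.00602 without that one. Limma-voom did not call it (adjusted p = 0.0823). Against the meninges its log2 fold change was 5.87 (SE 1.40, edgeR adjusted p = 0.0298), a call that was lost with limma-voom and without any 1 meningeal library, with adjusted p between 0.0882 and 0.255.

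The largest rise that met the rule for carried by 1 library was ENSRNOG00000002919, also at 0 counts in each blood library. It stood at 27.3, 16.4 and 138 CPM in parenchyma replicates 1, 2 and 3. Each parenchyma library was thus far above blood. Replicate 3 stood out from the other parenchyma libraries, but the rise over blood did not rest on it. Against the same floor, replicates 1, 2 and 3 were at least 539-fold, 323-fold and 2723-fold higher than blood. The mean without replicate 3 was at least 431-fold higher. The edgeR adjusted p was 0.00135 with all libraries and 0.000204 without parenchyma replicate 3. In the meninges it stood at 4.98, 17.3 and 7.56 CPM, overlapping with the parenchyma in replicate 2. The difference between the compartments did not pass the threshold (log2 fold change 2.62, SE 0.84, edgeR adjusted p = 0.0757). Without parenchyma replicate 3 the log2 fold change was 1.15 (edgeR adjusted p = 0.174), and with the replicate block the edgeR adjusted p was 0.162. The difference did pass without parenchyma replicate 2 (edgeR adjusted p = 0.0302) and with no filter on low counts (edgeR adjusted p = 0.0295). In wild-type blood it had 1, 2 and 0 counts.

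**Figure D5:**
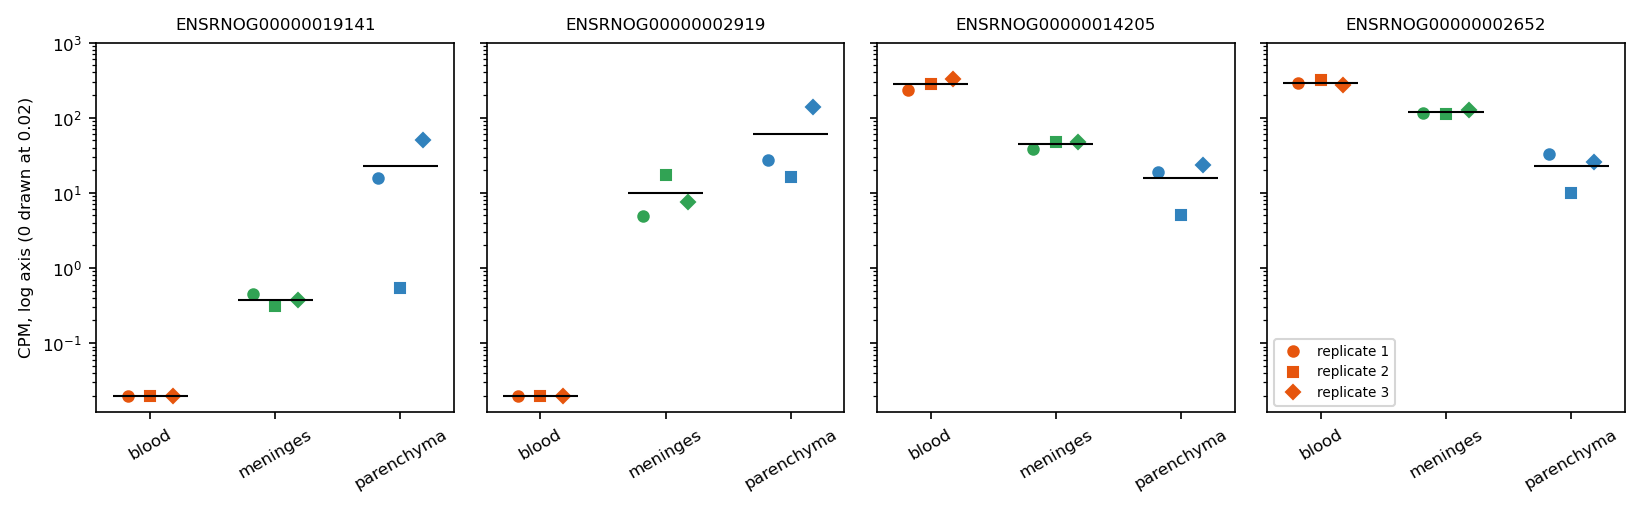
CPM of the 4 identifiers named in the text in each library of transgenic blood, meninges and parenchyma, on a log axis, with a line at each group's mean and values of 0 drawn at 0.02. The rises are at 0 in blood and spread widely over the parenchyma libraries. The falls, as their choice sets, keep all 3 parenchyma libraries below all blood libraries.

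Falls seen in all 3 parenchyma libraries started from higher levels. Their median level was 25.1, 26.7 and 24.6 CPM in blood replicates 1, 2 and 3 and 6.44, 5.15 and 7.02 CPM in parenchyma replicates 1, 2 and 3. The parenchyma medians were close to each other and, as the choice of the genes sets, all below those of blood. The median log2 fold change was -1.96, with quartiles of -2.44 and -1.67. Together the 225 genes took 3.92%, 3.97% and 4.12% of the counts of blood replicates 1, 2 and 3, and 1.10%, 1.09% and 1.16% in parenchyma replicates 1, 2 and 3. The 3 parenchyma libraries lay within 2-fold of each other in 162 of the 225 genes (72.0%, against 82.0% of all tested genes). In 24 genes every parenchyma library had under 10 counts.

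ENSRNOG00000014205 showed the largest fall by the naming rule. Its level was 236, 283 and 325 CPM in blood replicates 1, 2 and 3 and 19.0, 5.02 and 23.3 CPM in parenchyma replicates 1, 2 and 3. All parenchyma libraries were more than 10 times below the lowest blood library, and replicate 2 was the lowest (log2 fold change -4.15, SE 0.46, edgeR adjusted p = 0.000182). Wild-type blood held 352, 546 and 372 CPM, and the meninges 38.6, 47.9 and 47.9 CPM. The parenchyma was lower than the meninges by a log2 fold change of -1.50 (SE 0.42, edgeR adjusted p = 0.0395), a call that was lost without any 1 of the blood libraries, any 1 of the meningeal libraries or parenchyma replicate 1, with adjusted p between 0.0535 and 0.108.

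ENSRNOG00000002652 was the next. It stood at 287, 316 and 269 CPM in blood replicates 1, 2 and 3. In parenchyma replicates 1, 2 and 3 it stood at 33.3, 9.81 and 26.1 CPM. Replicate 2 was again the lowest, and there was no overlap, as the rule for falls sets (log2 fold change -3.66, SE 0.36, edgeR adjusted p = 9.78e-05). Wild-type blood held 249, 331 and 327 CPM, and the meninges 116, 112 and 125 CPM. Against the meninges the log2 fold change was -2.36 (SE 0.34, edgeR adjusted p = 0.00306).

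The meninges were compared to see where the parenchyma differed from the other brain compartment. Their titles end in the digit 3, so the limit on day given above holds here too. This contrast uses the same parenchyma libraries, so its calls are not independent of the groups above. It called 8% of all tested genes higher and 7.48% lower in the parenchyma. Of the 517 even rises, 337 were higher in the parenchyma than in the meninges and 2 lower, with a median log2 difference of 1.34. Of the 333 rises within 2-fold, 223 were higher and 2 lower, with a median of 1.05. Of the 190 genes carried by 1 library, 106 were higher and 0 lower, with a median of 4.19. Of the 225 falls, 173 were lower and 0 higher, with a median of -1.20. Leaving out meningeal replicate 1, 2 or 3 left 261, 212 and 204 of the even rises, 26, 4 and 4 of the genes carried by 1 library, and 131, 130 and 135 of the falls called in these directions. In the same fits 4.16%, 2.66% and 2.77% of all tested genes were called higher and 4.95%, 3.32% and 3.90% lower. Leaving out parenchyma replicate 3 left 297 of the even rises, 40 of the genes carried by 1 library and 147 of the falls, where 5.49% of all tested genes were called higher and 5.55% lower. The median level of the even rises was 4.53, 5.04 and 5.08 CPM in meningeal replicates 1, 2 and 3, between those of blood and parenchyma. For the genes carried by 1 library it was 1.38, 0.553 and 0.403 CPM, again highest in meningeal replicate 1.

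Wild-type blood gave blood libraries that had no part in choosing the genes, though they differ in genotype and the parenchyma libraries are the same. With all 12 libraries scaled together, every parenchyma library was at least 2 times the highest wild-type blood library in 7.05% of the tested genes and at most 1/2 of the lowest in 4.15%. The first held for 394 of the 517 even rises, 243 of the 333 within 2-fold and 130 of the 190 genes carried by 1 library. The second held for 166 of the 225 falls. In 1 of the 225 falls the parenchyma was at least 2 times wild-type blood in every library, and in 0 of the 517 even rises was it at most 1/2.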

How the data were processed

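Whole-number counts per gene were used as the authors deposited them, with 32754 gene rows in each file. The submitters' processing notes name STAR 2.5, featureCounts 1.5.0-p1 and genome build rn6; the sources used here do not give the strand setting, the annotation or the kit of each library (2 kits are named), so antisense, overlapping and near-identical genes were not separated. EdgeR 4.0.16 (R 4.3.3) was fitted to the 9 transgenic libraries (filterByExpr with a minimum count of 10, TMM scaling, quasi-likelihood test, 6 residual degrees of freedom), with Benjamini-Hochberg adjustment over 11809 genes and a threshold of 0.05. The SE is the log2 fold change divided by the square root of F. The procedure was tested on simulated data.

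Members, lists and rules were chosen with earlier results of these data known, and the grouping by spread within the parenchyma (2-fold, 4-fold) after the values were seen. The rule for names took the largest log2 fold change among even rises (parenchyma mean of 20 CPM or more), among rises carried by 1 library (5 CPM or more), and the first 2 among falls (blood mean of 20 CPM or more), without its condition on a symbol. The planned gene panel, gene lists and marker lists need names and were not used here. No sequence is printed for the same reason. Floors cover counting error only. Alternatives were DESeq2 1.42.0, limma-voom (limma 3.58.1), other scalings and filters, a replicate block and leaving out each library.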

Additional observations from a re-analysis of the deposited data

How the results depend on the processing

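The spread between 3 libraries limits these results, and 1 parenchyma library carries many large rises. Counts of changed genes stayed within 1.5 times under each setting tried except the one requiring a log2 fold change above 1 as well, which left 1926 genes (1204 higher, 722 lower). Leaving out 1 library gave 3298 to 4416 changed genes, 1743 to 2388 higher and 1487 to 2028 lower. It gave 606 to 1011 rises in all libraries, 516 to 790 even rises, 117 to 342 rises carried by 1 library and 233 to 401 falls in all libraries, and between 1 and 4 of the 4 named identifiers called against the meninges, where all libraries gave 3. Where 1 blood or parenchyma library was left out, the rules for the groups were applied to the 2 left in that tissue. Rises carried by 1 library numbered 40 with limma-voom and 448 with no filter on low counts, where more genes near 0 were tested. With a margin of 1.5 times in place of 2 there were 972 rises and 653 falls in all 3 libraries, and with 4 times 291 and 34. With 2 times in place of 4 over the second highest library 352 rises were carried by 1 library, and with 8 times 87. In 130 other combinations of count and setting the count stayed within 1.5 times, and no result reversed. Scaling by library totals, chosen after seeing the data, left 2261 higher and 1860 lower genes.

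The main fit did not pair libraries by replicate number. Deviations of same-numbered blood and parenchyma libraries correlated at -0.12, -0.13 and 0.04. Same-numbered blood and meningeal libraries correlated at 0.33, 0.37 and -0.03, and those of meninges and parenchyma at -0.21, -0.03 and -0.26. Differently numbered libraries correlated between -0.06 and 0.19 for blood and parenchyma, and between -0.39 and 0.16 for blood and meninges. Meningeal replicates 2, 3 and 1 correlated at 0.32, 0.31 and 0.32 with parenchyma replicates 1, 2 and 3. The other differently numbered pairs of these tissues lay between -0.21 and -0.05. These correlations over genes cannot settle whether libraries share a source, which was not tested. With the replicate block, 3671 genes changed and 126 rises were carried by 1 library. The planned counts for gene lists were not run, because the identifiers could not be matched to names.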

Other observations

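Among genes called lower in the parenchyma, one order of the libraries was the most frequent. Replicate 2 above 3 above 1 was found in 615 of the 1932 genes, and the other 5 orders in 212 to 316 genes each. Most of these were small: 345 of the 1210 falls below 2-fold and 249 of the 604 falls of 2 to 4-fold had this order, as did 19 of the 92 falls of 4 to 8-fold. Over all tested genes the same order held for 2493 of 11809.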
